A study of Mus musculus with 9 samples.

Results

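Libraries of mouse embryonic stem cells exposed to an inhibitor of GSK3, 3 with BRD0705 and 3 with CHIR, were set against 3 control libraries, 9 libraries in all, to describe the response that the inhibitors have in common. The members were the rows of the gene count table that passed a filter on low counts, 15366 of 52264. Of the compounds, BRD0705 blocks GSK3α in preference to GSK3β, whereas CHIR-99021 (CHIR) blocks both kinases. All cells were labelled β-catenin -/-, were expanded on feeder-treated dishes with the cytokine LIF at 40 ng/ml, the MEK inhibitor PD03 at 1 µM and CHIR at 3 µM, and were moved to N2B27, a serum-free medium, overnight. They were then left untreated or given BRD0705 or CHIR, at doses not stated in the labels, for 30 min. The controls had therefore also met CHIR during expansion, and the labels name no vehicle and do not say whether the line is 1 clone. The labels also do not say that the replicates came from separate cultures, so the p-values below measure the spread between these libraries, which may be technical.

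GSK3α and GSK3β are serine/threonine kinases that phosphorylate many substrates, among them β-catenin, glycogen synthase and several transcription factors. In mouse embryonic stem cells GSK3 inhibition is widely used to support self-renewal, an effect usually ascribed to β-catenin, which was labelled absent here. Over a time as short as this, changes in RNA are typical of immediate early genes, whose transcription starts from factors already present in the cell and whose RNAs turn over fast.

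Libraries held 17359422 to 20773337 counts, of which the 10 most abundant rows took 6.62 to 7.43%. The pluripotency factor Pou5f1 stood at 866 to 981 CPM (counts scaled to library size) and Nanog at 510 to 574 CPM over the 9 libraries. Summed markers of primitive endoderm were at 1520 to 1740 CPM, those of neuroectoderm at 104 to 127 CPM and those of trophoblast at 37.5 to 46.1 CPM. The sums were 13.5 to 17.8 CPM for mesoderm and primitive streak and 0.148 to 1.2 CPM for 2-cell-like cells. Neurog2 was the only neuroectoderm marker at 0 in every library, and Tcstv1 the only 2-cell-like one. All 21 markers of fibroblasts, the cells used as feeders, had counts, and their sum was 3740 to 4330 CPM in control, 4660 to 4750 CPM with BRD0705 and 4090 to 4960 CPM with CHIR. Ctnnb1, the gene of β-catenin, had 331 to 350 CPM in control, 303 to 354 CPM with BRD0705 and 341 to 371 CPM with CHIR, so its RNA was present, and gene counts do not show which exons were read. Its pooled log2 fold change was 0.01 ± 0.05 (SE, adjusted p = 0.967). The drug targets also missed the threshold, Gsk3a with a log2 fold change of 0.14 ± 0.07 (SE, adjusted p = 0.343) and Gsk3b with 0.09 ± 0.06 (SE, adjusted p = 0.441).

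The response common to the inhibitors was small in size. Among the genes that rose were the transcription factors Egr1, Fosl1, Snai1, Bhlhe40 and Bhlhe41, the epidermal growth factor family ligand Ereg, the chemokine Ccl7 and the cytokine Csf1. Among those that fell were Id2, an inhibitor of basic helix-loop-helix factors, Cks2, a subunit of cyclin-dependent kinases, and several ribosomal protein genes. In 9 fits that each left out 1 library, Fosl1, Snai1, Bhlhe40, Ccl7 and Csf1 kept the pooled call described below in all 9. Cks2 kept it in 8, Egr1 and Ereg in 7, Id2 in 5 and Bhlhe41 in 3. The mean of the 2 inhibitor groups was tested against control with edgeR's quasi-likelihood test, and 394 genes passed a Benjamini-Hochberg adjusted p of 0.05, which is 2.56% of those tested, 194 higher (1.26%) and 200 lower (1.3%). A change was called shared where, in addition, each inhibitor on its own moved the gene in that direction at an unadjusted p under 0.05; both of these contrasts use the same 3 controls. There were 272 shared calls, 1.77% of genes tested, of which 158 were higher (1.03%) and 114 lower (0.742%). Their median log2 fold change was 0.27 for the higher and -0.29 for the lower genes, only 6 of the 272 reached 1, and the median over all tested genes was -0.01. In 225 of the 272 the 6 inhibitor libraries did not overlap the 3 control libraries, against 6.38% of all tested genes (3.12% all above, 3.26% all below). The calls were made on these same libraries, so this separation follows in large part from the selection and is not added support. In bulk RNA, a gene expressed in fewer cells and less RNA per cell cannot be told apart.

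The number of calls rested on individual libraries. It was 53 without control replicate 2, 62 without control replicate 3, 157 without BRD0705 replicate 1, 222 without BRD0705 replicate 2 and 170 without CHIR replicate 2, against 543 without BRD0705 replicate 3. The shared calls went from 272 to 40, 48, 112, 165, 123 and 400 in the same order. With the fibroblast marker score as a covariate there were 14 calls (4 higher, 10 lower) and 11 shared ones, and with the 6 inhibitor libraries treated as 1 group there were 27. DESeq2 gave 513 calls, 314 higher and 199 lower, and limma on the deposited normalized values gave 357, 227 higher and 130 lower. Within edgeR, the split was 224 higher and 173 lower with RLE size factors and 160 higher and 226 lower with library size only.

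**Figure D1:**
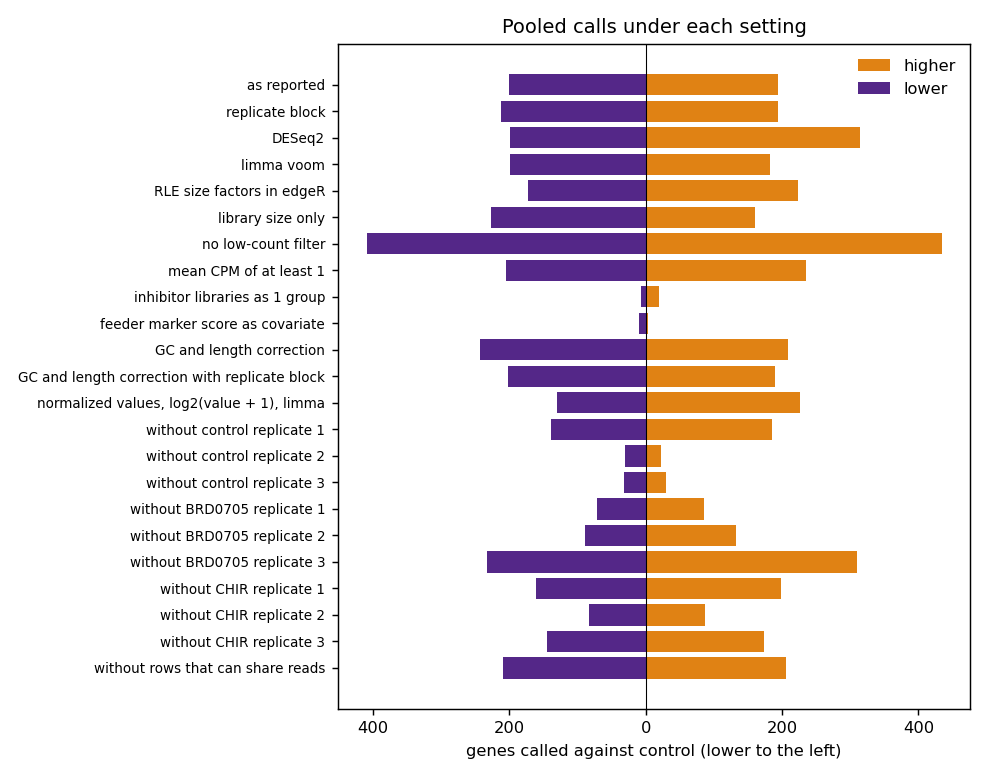
Genes called with both inhibitors pooled against control under each setting; bars to the right count genes called higher, bars to the left genes called lower, and "as reported" is the edgeR fit with 394 calls. The bars are shortest with the feeder marker score as covariate (14 calls), with the inhibitor libraries as 1 group (27) and without control replicate 2 (53) or 3 (62).

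A core of 26 of the 272 shared calls, 17 higher and 9 lower, stayed past the threshold whichever of the 9 libraries was left out. Those higher were Fosl1, Ccl7, Snai1, Csf1, Bhlhe40, Hbegf, Klf10, Junb, Cyp51, Klf16, Rbm38, Hmox1, Arpc4, Pip4k2c, Traf4 and the gene models Gm17035 and Gm7008. Those lower were Rpl23, Rpl11, Rps20, Klf6, Harbi1, Dusp27, Zfp518b and the gene models Gm20390 and Gm49450. With the fibroblast marker score as covariate, only Ccl7, Csf1, Bhlhe40, Klf10, Rpl23, Rpl11, Dusp27 and Gm20390 of these 26 stayed past the threshold. In 5 of the 26 the inhibitors differed at an adjusted p under 0.05 in the edgeR test of BRD0705 against CHIR. Klf16, Rbm38, Hmox1, Arpc4, Pip4k2c, Traf4, Zfp518b and the gene models lie outside the rule for naming genes and were singled out after their values were seen. Among the 26, Gm49450 had the largest decrease (log2 fold change -2.21) and Gm17035 the largest increase (0.82). Reads of Gm49450 can be shared with overlapping genes, so its value is uncertain.

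Promoter sequence was available from RefSeq (build GRCm38.p6, the assembly that mm10 names) for 11438 of the tested genes, as windows from 250 bases before to 50 bases after a start site. The motifs searched, on both strands, were the E-box CACGTG, the AP-1 site TGANTCA, the cyclic AMP response element TGACGTCA, the TCF site CTTTGAT and the CArG box bound by SRF. The E-box was in 14.7% of the 156 windows of genes with a shared higher call and in 7.55% of the 106 windows of genes with a shared lower call. Over all tested genes it was in 9.66% of the 14592 windows. The AP-1 site was in 3.85%, 3.77% and 5.26% of these sets in the same order, the cyclic AMP response element in 0.641%, 0.943% and 2.88%, the TCF site in 2.56%, 1.89% and 2.47%, and the CArG box in 2.56%, 1.89% and 1.22%. None of these shares was tested, and a match is a description of the letters. The 250 bases before the start are shown for 3 genes whose windows hold the E-box, in capitals: Bhlhe41 and Gadd45g, which rose, and Klf6, which fell. They lie at chr6:145865421-145865670 on the minus strand, chr13:51846425-51846674 on the plus strand and chr13:5861239-5861488 on the plus strand, with the E-box at -153 to -148, -142 to -137 and -43 to -38 from the start.
Bhlhe41: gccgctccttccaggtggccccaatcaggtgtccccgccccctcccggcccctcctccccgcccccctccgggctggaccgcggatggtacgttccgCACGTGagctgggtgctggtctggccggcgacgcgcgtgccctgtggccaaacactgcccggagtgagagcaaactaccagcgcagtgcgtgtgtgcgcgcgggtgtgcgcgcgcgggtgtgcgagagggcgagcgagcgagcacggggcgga
Gadd45g: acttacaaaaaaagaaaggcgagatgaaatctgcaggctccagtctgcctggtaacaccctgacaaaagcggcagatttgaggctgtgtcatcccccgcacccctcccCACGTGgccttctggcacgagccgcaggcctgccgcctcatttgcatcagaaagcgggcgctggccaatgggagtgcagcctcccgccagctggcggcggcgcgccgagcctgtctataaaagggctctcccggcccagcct
Klf6: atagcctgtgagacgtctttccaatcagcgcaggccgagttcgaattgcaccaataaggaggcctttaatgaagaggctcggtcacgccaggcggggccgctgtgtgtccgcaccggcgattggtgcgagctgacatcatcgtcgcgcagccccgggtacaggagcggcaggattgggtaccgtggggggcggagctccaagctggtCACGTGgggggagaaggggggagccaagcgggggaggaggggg

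Among transcription factors, Fosl1, a Fos family member of the AP-1 complex, read 15.9, 13.3 and 14.6 CPM in the controls, 23.0, 18.6 and 18.9 CPM with BRD0705 and 24.9, 25.2 and 24.0 CPM with CHIR. All 6 inhibitor libraries lay above all 3 controls, and the gene rose 1.53-fold (log2 fold change 0.61 ± 0.08, SE, adjusted p = 0.000643). Its log2 fold change was 0.47 ± 0.09 (SE) with BRD0705 and 0.76 ± 0.09 (SE) with CHIR, and the difference of -0.29 (95% interval -0.48 to -0.11) had an adjusted p of 0.0501. Fosl1 lies at chr19:5447698-5455938 in GRCm38.p6 and overlaps Ccdc85b on the opposite strand. Junb, a Jun family partner of Fos proteins, also rose, by a log2 fold change of 0.35 ± 0.06 (SE, adjusted p = 0.00446), from 37.1 to 37.8 CPM in control to 45.2 to 49.0 CPM with BRD0705 and 44.0 to 51.5 CPM with CHIR. It overlaps Prdx2 on the opposite strand. Since the use of strand in counting is not given in the sources used here, reads of genes that overlap an opposite-strand gene cannot be assigned with certainty, which holds for Fosl1, Junb, Jun, Klf10, Bhlhe40, Bhlhe41, Plk3, Dusp1, Ereg, Ch25h, Ptgs2, Icam1, Has2, Id2, Harbi1, Crebl2, Ankrd37, Rps23rg1, Cyp51, Cox4i1, Cox6c, Atp5j, Srsf3, Srsf4, Srsf5, Clk3, Lox, Col5a1, Rbm38, Arpc4, Gm17035, Gm7008, Ppp1r10, Axin2, Pou5f1, Gsk3a and Ctnnb1. Adcy9, Arpc4, Cks2, Rpl23, Rps20, Ppp1r10 and Ctnnb1 also overlap a gene on their own strand.

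Egr1, a zinc finger factor and a standard marker of growth factor signalling, stood at 4.63, 3.92 and 3.45 CPM in control, 6.21, 4.84 and 5.60 CPM with BRD0705 and 7.88, 7.65 and 6.83 CPM with CHIR. The lowest inhibitor library was above the highest control, and the gene rose 1.61-fold (log2 fold change 0.69 ± 0.13, SE, adjusted p = 0.0107). Snai1, a repressor of epithelial genes on chromosome 2 (chr2:167538195-167542814), was at 18.8, 14 and 15.1 CPM in control, 24.2, 22.6 and 22.6 CPM with BRD0705 and 21.2, 25.1 and 24.1 CPM with CHIR. It rose 1.46-fold (log2 fold change 0.55 ± 0.09, SE, adjusted p = 0.00351), and all inhibitor libraries lay above all controls. The inhibitors gave log2 fold changes of 0.54 and 0.55, a difference of -0.02 with a 95% interval from -0.22 to 0.18.

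Bhlhe40, a circadian and hypoxia-responsive repressor, read 94.2, 93.4 and 90.6 CPM in control, 123, 129 and 118 CPM with BRD0705 and 123, 144 and 135 CPM with CHIR. All inhibitor libraries were higher than all controls, a 1.39-fold rise (log2 fold change 0.47 ± 0.05, SE, adjusted p = 0.00019). Its relative Bhlhe41 rose 1.51-fold at a far lower level, from 3.15, 4.02 and 3.65 CPM to 4.92, 5.97 and 4.51 CPM with BRD0705 and 6.38, 5.62 and 5.36 CPM with CHIR (log2 fold change 0.59 ± 0.14, SE, adjusted p = 0.0320). Klf10, a factor induced early by transforming growth factor β, was at 112 to 122 CPM in control, 132 to 142 CPM with BRD0705 and 172 to 174 CPM with CHIR, and rose with a log2 fold change of 0.39 ± 0.05 (SE, adjusted p = 0.000273). Klf6, of the same family, went the other way, from 41.4, 45.1 and 39.1 CPM to 32.7, 35.3 and 33.0 CPM with BRD0705 and 32.1, 30.7 and 32.0 CPM with CHIR (log2 fold change -0.36 ± 0.06, SE, adjusted p = 0.00314).

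**Figure D2:**
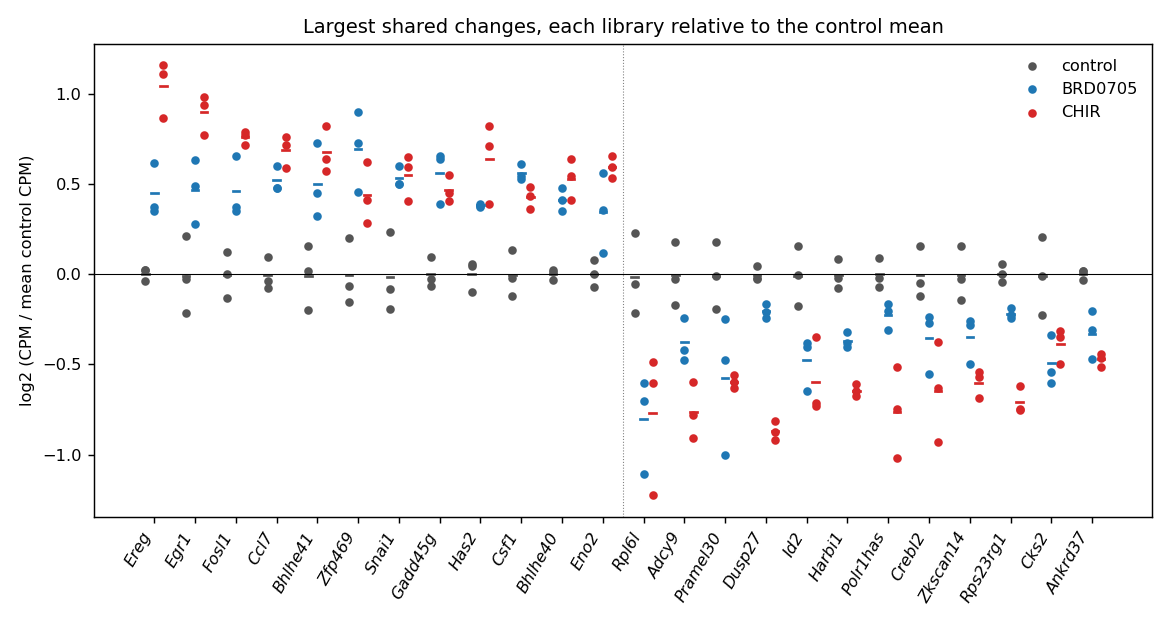
The 12 higher and 12 lower shared calls with the largest changes; each point is 1 library as log2 of its CPM over the mean control CPM, short bars are the means of the 3 libraries of a group, and colours are control (grey), BRD0705 (blue) and CHIR (red). For each gene the 6 inhibitor libraries lie on one side of the 3 controls, which the rule for choosing these genes required.

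As a list, the immediate early transcription factors had 8 of 22 tested members called, 36.4% against 2.56% of all genes, 7 higher and 1 lower. Egr1, Fosl1, Klf10, Junb, Jun, Nr4a1 and Ier2 rose and Klf6 fell. The calls were shared ones but for Ier2, and the list median was 0.13, with 0.14 for BRD0705 and 0.12 for CHIR. Fos itself, at 2.71 to 3.55 CPM in control, missed the threshold (log2 fold change 0.14 ± 0.17, SE, adjusted p = 0.747), as did Myc (log2 fold change -0.01 ± 0.06, SE, adjusted p = 0.946). Without control replicate 2 or control replicate 3, 3 members rose and 1 fell, and with the fibroblast marker score as covariate 1 rose and none fell. Among early feedback and signalling genes, 6 of 29 (20.7%, against 2.56% of all genes) were called. Gadd45g, Plk3, Spry4, Dusp1 and Ier3 rose and Sgk1 fell, with a list median of 0.05. Of these, 3 higher calls and 1 lower call were shared; Dusp1 did not reach an unadjusted p of 0.05 with CHIR, nor Ier3 with BRD0705. Gadd45g, a stress and growth arrest gene, was at 3.65, 3.97 and 3.55 CPM in control, 4.87, 5.86 and 5.79 CPM with BRD0705 and 5.08, 5.45 and 4.92 CPM with CHIR, a 1.43-fold rise (adjusted p = 0.0372). Sgk1, a kinase related to AKT, fell from 125 to 133 CPM in control to 103 to 114 CPM with BRD0705 and 107 to 111 CPM with CHIR (log2 fold change -0.23 ± 0.05, SE, adjusted p = 0.0153). Without control replicate 2 no member of this list was called, and without control replicate 3 there was 1 call.

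Secreted factors were also among the genes that rose. Ccl7, a chemokine for monocytes on chromosome 11 (chr11:82045712-82047525), read 38.5, 35.1 and 34.2 CPM in control, 54.5, 50.2 and 50.2 CPM with BRD0705 and 61.0, 59.0 and 54.1 CPM with CHIR. Every inhibitor library exceeded every control, and it rose 1.52-fold (log2 fold change 0.61 ± 0.06, SE, adjusted p = 2.05e-05). Csf1, the macrophage growth factor, rose 1.41-fold, from 77.7, 65.0 and 69.7 CPM to 108, 103 and 102 CPM with BRD0705 and 95.5, 99.0 and 91.0 CPM with CHIR (log2 fold change 0.49 ± 0.06, SE, adjusted p = 0.00019). For Csf1 the difference between BRD0705 and CHIR was 0.13, with a 95% interval from -0.00 to 0.27, and for Ccl7 it was -0.17, with an interval from -0.31 to -0.03; neither passed the adjusted threshold. Both genes passed alone with each inhibitor.

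The epidermal growth factor family ligands Ereg and Hbegf, which bind receptors of the EGFR family, both rose, 2 of 8 tested members of that list (25%, against 2.56% of all genes). Without control replicate 2 or control replicate 3 the list had 1 call, and with the fibroblast marker score as covariate none. Ereg was at 1.92, 1.84 and 1.92 CPM in control, 2.41, 2.45 and 2.90 CPM with BRD0705 and 3.44, 4.07 and 4.21 CPM with CHIR, so the CHIR libraries were highest and no group overlapped another. Its pooled rise was 1.68-fold (log2 fold change 0.75 ± 0.16, SE, adjusted p = 0.0204). Hbegf read 34.9, 32.6 and 29.2 CPM in control, 37.6, 41.7 and 41.8 CPM with BRD0705 and 50.4, 48.1 and 44.3 CPM with CHIR (log2 fold change 0.44 ± 0.07, SE, adjusted p = 0.00193). Of the NF-kB feedback and chemokine genes, 5 of 20 (25%, against 2.56% of all genes) rose and none fell, with a median of 0.18, and 16 of 20 had a positive log2 fold change. Besides Ccl7 these were Ch25h, a cholesterol hydroxylase, Lif, Ptgs2 and Icam1. The calls of Ccl7, Ptgs2 and Icam1 were shared, and those of Ch25h and Lif were not, since neither reached an unadjusted p of 0.05 with BRD0705. Ptgs2, the inducible cyclooxygenase, was at 53.5 to 60.4 CPM in control, 59.1 to 69.8 CPM with BRD0705 and 77.2 to 93.4 CPM with CHIR. Without control replicate 2 there were 2 calls in this list, without control replicate 3 there was 1, and with the fibroblast marker score as covariate 1. The part of fibroblast RNA in these calls was not tested.

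The fibroblast feeder markers moved with the same contrast. Of 21, 4 rose (19%, against 2.56% of all genes called), namely Lox, Col5a1, Col1a1 and Col6a2, and none fell. A positive log2 fold change was found for 20, and the median was 0.17. Col1a1, a fibrillar collagen chain, was at 1570, 1290 and 1300 CPM in control, 1780, 1710 and 1670 CPM with BRD0705 and 1620, 1780 and 1550 CPM with CHIR, so CHIR replicate 3 lay below control replicate 1. The marker score, the mean log2 CPM of the 21 genes, averaged 6.197 ± 0.088 for the controls, 6.395 ± 0.020 for BRD0705 and 6.354 ± 0.155 for CHIR (SD over 3 libraries). No feeder marker was called without control replicate 2. Libraries also differed in how their deviations from the mean followed GC content, with Spearman's rho across genes from -0.288 to 0.187 in control, 0.0795 to 0.280 with BRD0705 and -0.121 to -0.0642 with CHIR. The median GC content was 54.7% in shared higher calls, 46.2% in shared lower calls and 49.7% in all tested genes. After a correction of each library for GC content and length there were 450 pooled and 299 shared calls. These held 334 of the 394 pooled calls and 206 of the 272 shared calls made without the correction, so the genes called also changed.

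**Figure D3:**
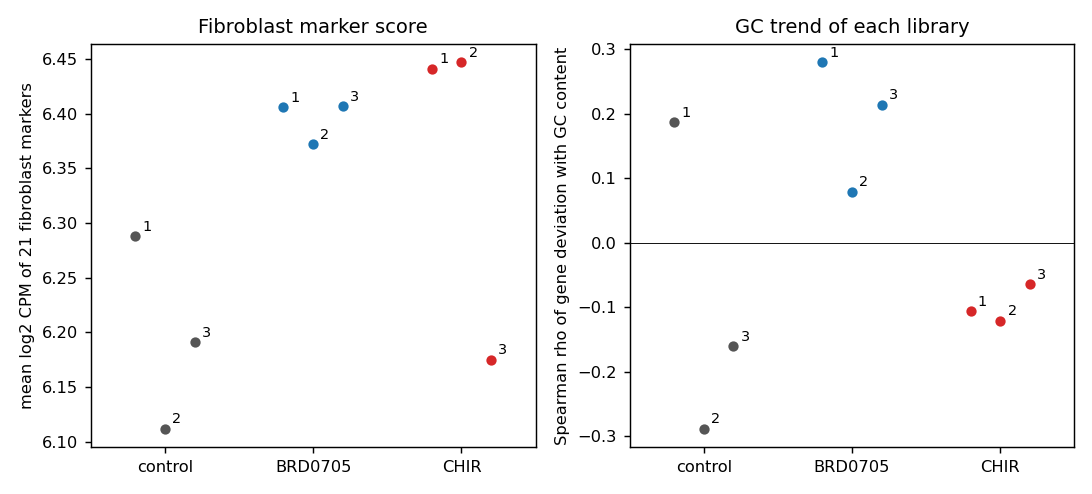
Measures of each library, numbered by replicate: on the left the mean log2 CPM of the 21 fibroblast markers, on the right Spearman's rho, across genes, between GC content and the deviation of a gene from its mean. The 3 BRD0705 libraries and CHIR replicates 1 and 2 have scores above all controls, CHIR replicate 3 (6.175) lies within the control range, and control replicate 2 has the lowest score (6.112) and the lowest rho (-0.288).

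Several genes of lipid synthesis rose. Cyp51, the lanosterol demethylase of cholesterol synthesis, was at 103, 103 and 109 CPM in control, 130, 123 and 132 CPM with BRD0705 and 131, 123 and 128 CPM with CHIR. All inhibitor libraries lay above all controls, the log2 fold change was 0.29 ± 0.05 (SE, adjusted p = 0.00446), and the inhibitors differed by 0.01 (95% interval -0.10 to 0.13). Sc5d, which acts later in the same pathway, and Fasn, the fatty acid synthase, were also called. Of the list, 4 of 25 (16%, against 2.56% of all genes called) rose and none fell. Positive log2 fold changes were found for 23 of the 25, the median was 0.10, and 6 had all inhibitor libraries above all controls, against 3.12% of all tested genes. There were 2 calls without control replicate 2, 1 without control replicate 3 and none with the marker score as covariate, where the list median was 0.12. Hmox1, the inducible haem oxygenase, also rose, from 119, 110 and 114 CPM to 136, 143 and 141 CPM with BRD0705 and 147, 158 and 145 CPM with CHIR (log2 fold change 0.34 ± 0.05, SE, adjusted p = 0.00138).

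Genes of the translation machinery were among those that fell. Rpl23, a protein of the large ribosomal subunit (chr11:97777526-97782439), read 757, 739 and 729 CPM in control, 506, 541 and 555 CPM with BRD0705 and 612, 669 and 637 CPM with CHIR. No library overlapped between groups, the pooled log2 fold change was -0.34 ± 0.05 (SE, adjusted p = 0.000618), and the fall was larger with BRD0705 (-0.47) than with CHIR (-0.21, adjusted p of the difference = 0.00505). Rps20 went from 509, 435 and 428 CPM to 328, 338 and 387 CPM with BRD0705 and 380, 368 and 377 CPM with CHIR, and Rpl11 fell with a log2 fold change of -0.32 ± 0.05 (SE, adjusted p = 0.00566). Of 86 rows with a cytosolic ribosomal protein symbol, 12 were called (14%, against 2.56% of all genes), 11 lower (10 of them shared) and 1, Rps26, higher. The lower calls include Rpl6l, a pseudogene in RefSeq, at a mean of 3.32 CPM in control. The list median was -0.10, with -0.15 for BRD0705 and -0.06 for CHIR. A positive log2 fold change was found for 15 of the 86, against 7150 of the 15366 tested genes. Ribosomal protein genes have many near-identical pseudogenes, so how the counting split their reads makes single members uncertain. Without control replicate 2 there were 3 lower calls and without control replicate 3 there were 4, while DESeq2 gave 17 lower and 1 higher. Nuclear-encoded subunits of oxidative phosphorylation had 5 of 82 lower, Cox4i1, Cox7a2, Cox6c, Atp5j and Ndufb10, and 1 higher, Cox6b2, 7.32% in all against 2.56% of all genes, with a median of -0.09. There was 1 such call without control replicate 2, 1 without control replicate 3, and none with the marker score as covariate or with 1 inhibitor group. Cox4i1, a core-associated subunit of cytochrome oxidase, was at 240, 223 and 213 CPM in control, 171, 178 and 194 CPM with BRD0705 and 199, 179 and 194 CPM with CHIR (log2 fold change -0.28 ± 0.05, SE, adjusted p = 0.0112).

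Other genes of diverse function also changed. Id2 (chr12:25093799-25096092) was at 11.0, 9.83 and 8.72 CPM in control, 6.31, 7.57 and 7.46 CPM with BRD0705 and 6.03, 5.95 and 7.76 CPM with CHIR, all inhibitor libraries below all controls (log2 fold change -0.53 ± 0.11, SE, adjusted p = 0.0196). It was the only call among 10 tested BMP targets (10%, against 2.56% of all genes). Cks2 (chr13:51645232-51650662) fell from 57.1, 49.3 and 42.4 CPM to 34.1, 32.7 and 39.3 CPM with BRD0705 and 39.0, 39.9 and 35.1 CPM with CHIR (log2 fold change -0.44 ± 0.08, SE, adjusted p = 0.00848). Nodal, a ligand that maintains the primed and mesendoderm programmes, fell from 58.6 to 65.4 CPM in control to 50.3 to 56.4 CPM with BRD0705 and 49.9 to 53.9 CPM with CHIR (log2 fold change -0.23 ± 0.06, SE, adjusted p = 0.0377). Harbi1 and Dusp27 also fell, Dusp27 much further with CHIR (log2 fold change -0.87 ± 0.06, SE) than with BRD0705 (-0.21 ± 0.06, SE). Further large decreases were in Rpl6l, Adcy9, Pramel30, Polr1has, Crebl2, Zkscan14, Rps23rg1 and Ankrd37, with log2 fold changes from -0.75 to -0.40. Further large increases were in Zfp469, Has2 and Eno2, from 0.47 to 0.57. When libraries were dropped singly, Adcy9, Pramel30 and Ankrd37 stayed past the pooled threshold only 1 time in 9. Crebl2, Zkscan14, Has2 and Nodal did so 2 times, Rpl6l and Zfp469 4 times, Eno2 7 times and Polr1has and Rps23rg1 8 times. In the splicing list of cold-inducible, CLK and SR genes 6 of 15 were called (40%, against 2.56% of all genes): Srsf4 and Clk3 rose, and Clk1, Srsf3, Srsf5 and Srsf7 fell. Clk3 and Srsf5 were not shared calls, and no member was called without control replicate 2, without control replicate 3, with the marker score as covariate or with 1 inhibitor group. Srsf3, an SR splicing factor, was at 193, 211 and 213 CPM in control, 170, 179 and 180 CPM with BRD0705 and 178, 182 and 182 CPM with CHIR (log2 fold change -0.20, adjusted p = 0.0270).

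Wnt and pluripotency genes gave no calls in the edgeR fit of all 9 libraries. Over all 15366 tested genes, that fit called 2.56%, and 2615 had an unadjusted p under 0.05. In lists of 12 to 16 tested members, an absence of calls at the adjusted threshold is close to that 2.56%. At an unadjusted p under 0.05, both pluripotency lists below had a larger share of members than all tested genes had. The Wnt list had a smaller one. These shares were not tested. None of 15 tested Wnt and TCF target genes passed in edgeR's quasi-likelihood test, with DESeq2 or with limma, and 2 had an unadjusted p under 0.05; their median was 0.00. Axin2, the most general of these targets, was at 13.9, 13.0 and 13.8 CPM in control, 14.8, 13.3 and 13.2 CPM with BRD0705 and 13.3, 15.0 and 16.0 CPM with CHIR (log2 fold change 0.07 ± 0.08, SE, adjusted p = 0.725). The groups overlapped. None of 16 naive pluripotency genes was called by edgeR, DESeq2 or limma, with 6 at an unadjusted p under 0.05, and none of 12 general pluripotency genes by edgeR, with 5 at an unadjusted p under 0.05 and 1 higher with DESeq2 and with limma voom. Each of these 3 lists had 1 call without BRD0705 replicate 3, and the Wnt list had 1 without the low-count filter. Frat1, which encodes a GSK3 binding protein, was the only call among 22 GSK3 and destruction complex genes (4.55%, against 2.56% of all genes). It was lower, at 8.33, 9.44 and 8.23 CPM in control, 6.31, 7.11 and 8.36 CPM with BRD0705 and 2.79, 4.35 and 4.10 CPM with CHIR. BRD0705 replicate 3 overlapped the controls, and the call was not a shared one.

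**Figure D4:**
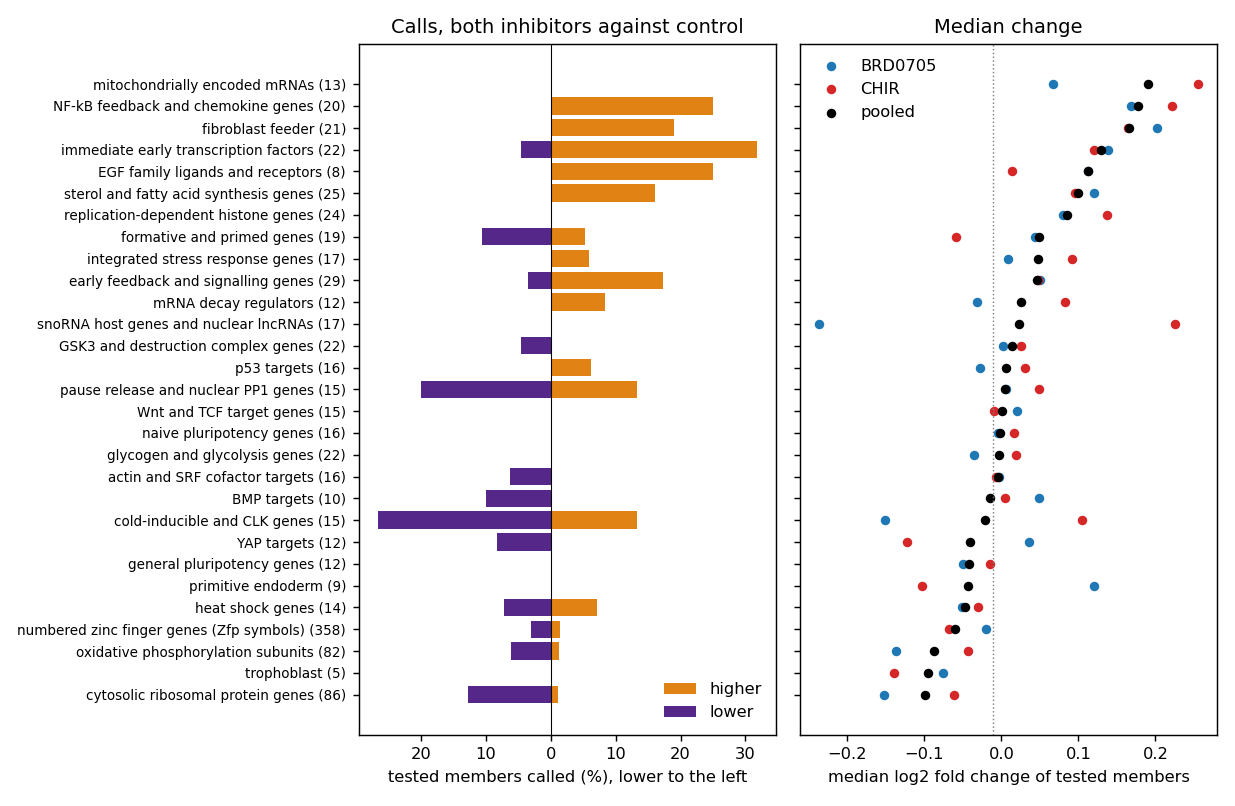
Gene lists with at least 5 tested members (number in parentheses): on the left the percentage called with both inhibitors pooled, higher to the right and lower to the left, on the right the median log2 fold change for BRD0705 (blue), CHIR (red) and both pooled (black), with the median of all genes (-0.01) dotted. Immediate early transcription factors have the largest share called higher (7 of 22), and cytosolic ribosomal protein genes have the lowest pooled median (-0.10).

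A pooled call is not always a common one. Of the 394 pooled calls, 122 were not shared, and in 110 of these the change was larger with CHIR; 20 had opposite signs with the 2 inhibitors. Ppp1r10, a nuclear regulator of protein phosphatase 1, was at 125, 120 and 132 CPM in control, 154, 143 and 140 CPM with BRD0705 and 39.9, 44.8 and 44.3 CPM with CHIR. Its pooled log2 fold change of -0.67 ± 0.05 (SE, adjusted p = 1.01e-06) was thus the mean of 0.21 ± 0.06 and -1.55 ± 0.06 (SE). Dido1, a chromatin protein, was at 289 to 321 CPM in control, 306 to 339 CPM with BRD0705 and 114 to 119 CPM with CHIR, and Rimbp3 showed the same layout at 2.81 to 3.05, 2.79 to 2.90 and 0.606 to 1.04 CPM. Within the shared calls, 28 of 272 differed between the inhibitors at an adjusted p under 0.05, against 7.77% of all tested genes, and the median absolute log2 fold change was 0.26 with BRD0705 and 0.27 with CHIR. Taken alone, 50 of the 272 were called with each inhibitor, 52 with BRD0705 only, 129 with CHIR only and 41 with neither, where BRD0705 alone called 1.22% of all genes and CHIR alone 6.3%.

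**Figure D5:**
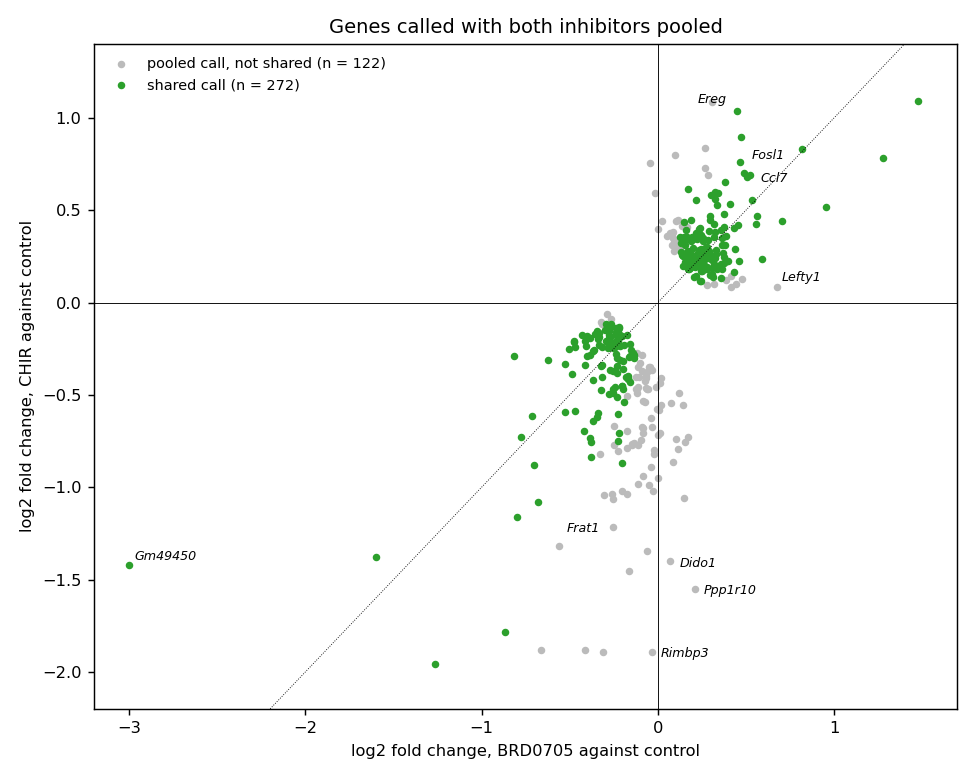
Log2 fold change against control with BRD0705 (horizontal) and CHIR (vertical) for the 394 pooled calls, with shared calls in green and others in grey; the dotted line marks equal change, and 2 low-count rows lie outside the axes. The axes share the 3 control libraries, and the shared calls lie at the lower left or upper right by definition, while Ppp1r10 and Dido1 lie low on the CHIR axis and above 0 on the BRD0705 axis.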

How the data were processed

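RNA sequencing libraries of 9 samples, 3 per group, were grouped by the library names in the labels. Per the submitters' processing notes, RSEM, DESeq2 and the mm10 build were used; roles, versions, annotation and use of strand are not given in the sources used here. Per the labels' protocols, a TruSeq kit with ribosomal RNA depletion was used, while the molecule label names polyA RNA, and 2 RNA extraction kits are named; neither was resolved. The authors deposited raw counts as whole numbers, 1 row per gene, and a normalized table, treated as a signal in scaled counts, whose ratio to the raw table was constant in each library. No column belonged to other samples.

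The count model was that of edgeR 4.0.16 (R 4.3.3): TMM scaling, filterByExpr by group with a minimum count of 10, 1 fit of 3 group means (6 residual degrees of freedom), the quasi-likelihood F test of the mean of the inhibitor groups minus control, and Benjamini-Hochberg adjustment over 15366 rows, at 0.05, 2-sided. The common dispersion was 0.00356. Standard errors were derived from each F statistic, CPM from TMM-scaled totals. Pairs of libraries in a group differed by more than sampling noise (chi-square per degree of freedom 3.40 to 8.05). Such spread can be technical, so it does not show that the libraries came from separate cultures. Each library was counted as 1 replicate.

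The members, gene lists and naming rule were chosen with earlier results of these data known. Named were Ctnnb1, Gsk3a and Gsk3b; up to 12 shared calls per direction with the largest change, a mean log2 CPM of at least 1, no overlap between inhibitor and control libraries and no clone name; called list members, at most 6 a list; and the calls that differed most between inhibitors. Of the genes that met this rule, some are not reported here. Lists are described by counts and medians, with no set test. The test was checked on simulated data with known changes, the same in both inhibitor groups. It called 41.8% of log2 changes of 0.3, 62.7% of those of 0.5 and 87.5% of those of 1, and 7.35% of its calls were false. Below 5 CPM it called 0% of the changes of 0.3 and of 0.5 and 60% of those of 1. The recovery required was set after a first result had been seen.

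Gene length, GC content and overlaps came from GENCODE vM39, with 49553 rows matched on current and 103 on older symbols, and positions and promoters from RefSeq. Alternatives were a replicate block, DESeq2 1.42.0, limma 3.58.1 (voom, or log2(value + 1) of the normalized values), other scalings and filters, 1 inhibitor group, the fibroblast marker score as covariate, a GC and length correction and leaving out each library; leaving out rows that can share reads was chosen after seeing the data.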

Additional observations from a re-analysis of the deposited data

Results flagged for a closer look

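Of the 85 named genes past the pooled threshold, 32 differed between BRD0705 and CHIR at an adjusted p under 0.05 in edgeR's quasi-likelihood test. Over all tested genes that share was 7.77%. The naming rule admitted some genes because they differed most between the inhibitors, so the count follows in part from the selection. The change was larger under CHIR for 26 of the 32 and under BRD0705 for 6. Values below are BRD0705 minus CHIR on the log2 scale. For 2 of the 32, Ppp1r10 at 1.761 and Dido1 at 1.472, the fitted changes had opposite signs, and only the decrease with CHIR passed the adjusted threshold. With BRD0705 the log2 fold change was 0.21 ± 0.06 for Ppp1r10 (SE, adjusted p = 0.0843) and 0.07 ± 0.06 for Dido1 (SE, adjusted p = 0.579).

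Among genes with pooled values below control, the difference was 1.859 for Rimbp3, 1.467 for Zfp964, 1.286 for Zfp324, 0.965 for Frat1, 0.87 for Zfp959, 0.855 for Zfp93, 0.663 for Dusp27, 0.524 for Polr1has, 0.484 for Rps23rg1, 0.443 for Hexim1, 0.392 for Sox4, 0.376 for Filip1l and 0.342 for Ccn2, each lower with CHIR. Srsf5, at -0.224, Rpl23, at -0.26, Atp5j, at -0.221, and Cox7a2, at -0.195, were lower with BRD0705. Among genes with pooled values above control, CHIR gave the higher level for Ch25h (-0.776), Ereg (-0.588), Lif (-0.463), Ptgs2 (-0.444), Ccnt2 (-0.343), Klf10 (-0.341), Ppp1r15a (-0.31), Ier3 (-0.309), Ccnt1 (-0.264), Spry4 (-0.233) and Clk3 (-0.23). BRD0705 gave the higher level for Lefty1 (0.589), a Nodal antagonist, and Dusp1 (0.345), a phosphatase of MAP kinases. Dusp1 read 86.3 to 96.0 CPM in control, 119 to 125 CPM with BRD0705 and 93.8 to 98.3 CPM with CHIR.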

How the results depend on the processing

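None of the 85 named calls changed direction under any alternative. Without the low-count filter there were 843 pooled calls (434 higher, 409 lower) and 569 shared ones; with the inhibitor libraries as 1 group, 27 pooled calls, and a shared count cannot be formed; with the fibroblast marker score as covariate, 14 and 11. Leaving out each library in turn gave 53 to 543 pooled and 40 to 400 shared calls. The cause of these changes was not tested. The other planned settings kept pooled calls between 357 and 513 and shared calls between 258 and 345, and leaving out rows that can share reads, chosen after seeing the data, gave 415 and 278. Of the 85 named calls, 10 passed with the marker score as covariate. The call was lost for 71 with 1 inhibitor group, for 62 without control replicate 2, for 59 without control replicate 3 and for 13 after GC and length correction.

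Replicate numbers did not pair the libraries: deviations of same-numbered libraries correlated across genes at -0.0897 to 0.0802 (9 pairs, mean -0.00119), those of different numbers at a mean of 0.000622, and 2 of 9 libraries correlated best with their own number in both other groups. With the replicate block there were 406 pooled calls (194 higher, 212 lower) and 287 shared ones. Total counts of 17359422 to 20773337 per library limit what could be called among genes of low counts.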

Other observations

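Other groups showed values not described above. Mitochondrially encoded mRNAs had a pooled median log2 fold change of 0.19 (0.07 with BRD0705, 0.26 with CHIR) over 13 genes, with none called by edgeR, 5 at an unadjusted p under 0.05 and 1 higher with DESeq2. Other edgeR settings called members: 1 higher with the replicate block, without control replicate 1 or without BRD0705 replicate 2, 3 higher without BRD0705 replicate 3, 4 higher with GC and length correction and the block, and 8 higher and 1 lower without the low-count filter. The snoRNA host genes and nuclear lncRNAs had medians of opposite sign, -0.24 with BRD0705 and 0.23 with CHIR over 17 genes, with none called in the pooled contrast by edgeR, DESeq2 or limma voom and 4 at an unadjusted p under 0.05. In edgeR, 2 were higher without the low-count filter and 1 after GC and length correction, with or without the replicate block.

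Of single genes outside the groups above, Bag3, a co-chaperone of the heat shock response, rose from 67.1, 61.1 and 58.1 CPM in control to 90.2, 81.1 and 72.6 CPM with BRD0705 and 80.8, 81.4 and 76.8 CPM with CHIR (log2 fold change 0.37 ± 0.07, SE, adjusted p = 0.00634). Cdkn1a, the cell cycle inhibitor p21, rose from 130 to 145 CPM in control to 150 to 170 CPM with BRD0705 and 151 to 166 CPM with CHIR (log2 fold change 0.21 ± 0.05, SE, adjusted p = 0.0434), and it was the only one of 16 tested p53 targets to be called.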
